A study of Mus musculus with 21 samples.

Results

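The Nfib locus was followed as open chromatin across 7 groups of mouse libraries. Nfib lies at chr4:82290173-82506751 on mm10 (RefSeq, GRCm38.p6) and spans 216579 bp. The locus was taken as the gene body and 100 kb on each side, chr4:82190173-82606751, a window of 416579 bp. Its members were chosen by position and by the score that the peak caller gave each summit, a summit being a base of locally highest signal. A peak can hold several summits, so counts of summits are not counts of peaks. The fullest peak of the window held 2 to 13 kept summits per library. The 100000 highest-scoring summits of each library were kept, and 2212 of the 2100000 kept summits lay in the window. Merged into non-overlapping sites of 500 bp, they gave 274 of the 271926 sites of the whole series. A site was called open in a library that had a kept summit inside it, and closed otherwise. Kept summits that fell between sites belonged to none. In the window 77.1% to 84.3% of them lay in a site in primary libraries. The share was 85.2% to 87.0% in untreated VDR cells and 71.0% to 77.3% in siRNA-treated VDR cells. A closed site can thus have a kept summit just outside it.

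Omni-ATAC, in which a transposase cuts and tags accessible DNA, was applied to 21 libraries in 7 groups of 3. Primary cells were EGFP-positive cells sorted from Atoh1EGFP cerebella, Atoh1 being a marker of granule neuron progenitors. GNP were granule neuron progenitors of postnatal day 7 with titles that read Ptch1GNP, hyperplasia was taken at postnatal day 28 with titles that read PNC, and tumor cells came from medulloblastoma with no age listed. Genotypes beyond these names are not given in the sources used here, and stage cannot be told apart from age. The remaining groups were VDR, a mouse medulloblastoma cell line, left untreated or given the control siRNA siNC, siNfia or siNfib. The design text says siRNA, while the deposited lists carry names beginning with sh, so the reagent is uncertain. The study asked how chromatin changes on the way to medulloblastoma and what loss of Nfia or Nfib does in VDR cells. Nothing in the labels says whether replicates were separate animals or cultures, so p-values measure only the spread between these libraries.

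Nfib encodes a member of the nuclear factor I (NFI) family, together with Nfia, Nfic and Nfix. These transcription factors bind DNA as dimers at palindromes built from the motif TTGGC. In the mouse cerebellum NFI factors are known for their part in the differentiation and migration of granule neurons. Nfib is also a regulator of lung and glial development. ATAC-seq reads open DNA and not RNA, so whether siNfib lowered Nfib mRNA could not be checked in these data.

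The RefSeq promoter sequences used here cover 2 genes that lie in the window, both long non-coding RNAs. Gm11266 starts beyond the higher-coordinate end of Nfib, and its promoter is printed because a site open in 21 of 21 libraries, chr4:82507692-82508191, overlaps it. The 300 bases at chr4:82507739-82508038 (GRCm38.p6, + strand, 250 bases before to 50 after the start) are given 5′ to 3′ with the motif TTGGC in capitals.
Gm11266 promoter: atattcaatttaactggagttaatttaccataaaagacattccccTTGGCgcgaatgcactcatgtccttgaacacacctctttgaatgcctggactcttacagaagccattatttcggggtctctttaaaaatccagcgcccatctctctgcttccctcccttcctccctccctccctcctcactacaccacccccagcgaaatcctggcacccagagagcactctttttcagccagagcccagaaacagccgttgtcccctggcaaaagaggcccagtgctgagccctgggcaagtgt
The motif stood 1 time, at base 46 from the 5′ end, and was searched as TTGGC on both strands. It is common: 46.7% of 32851 RefSeq promoters of this length hold it. The full palindrome, the motif and its reverse complement 5 bases apart, was absent from these 300 bases and stood in 12 of the 32851 promoters (0.0365%). The promoter of Gm42305 overlapped no site. The Nfib promoter sequence was not analysed here.

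Primary libraries held 70, 78 and 77 kept summits over the locus in GNP, 70, 76 and 70 in hyperplasia and 70, 77 and 84 in tumor. Untreated VDR cells held 81, 77 and 77 kept summits, within the range of the tumors for summits. The siRNA-treated VDR libraries held many more, with 167, 155 and 129 for siNC, 154, 145 and 148 for siNfia and 147, 138 and 122 for siNfib. By this count every siRNA-treated library was above each of the other 12 libraries, and the 3 siRNA groups overlapped each other. Kept summits lay in 39 to 50 peaks per primary library, 68 to 77 in untreated VDR and 64 to 138 with siRNA. They opened 45 to 56 sites per primary library, 59 to 66 in untreated VDR and 74 to 116 with siRNA. By peaks and by sites every untreated VDR library was above every tumor library. By peaks siRNA-treated and untreated VDR libraries overlapped. The fullest peak held 2 to 3 kept summits in untreated VDR and 5 to 13 in the other groups. The gene body alone held 27 to 36 kept summits in primary libraries, 38 to 46 in untreated VDR and 69 to 96 in siRNA-treated VDR.

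Summits were unevenly spread along the locus. The 100 kb beyond the higher-coordinate end, which holds Gm11266 and Gm11267, carried 35 to 47 kept summits per primary library, and the 100 kb beyond the lower-coordinate end carried 1 to 3. VDR libraries had 3 to 15 summits on that lower side. As background, Nfib is transcribed toward lower coordinates, so the dense side is upstream of the gene. Over the whole window, primary libraries had 16.8 to 20.2 kept summits per 100 kb, against 6.3 to 8.1 in the 500 kb on each side of it and 4.38 to 4.57 along chromosome 4. The window was thus 2.07 to 2.93 times as dense as its neighbouring 1 Mb in primary cells, 1.25 to 1.43 times in untreated VDR and 1.83 to 2.31 times in siRNA-treated VDR.

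**Figure D1:**
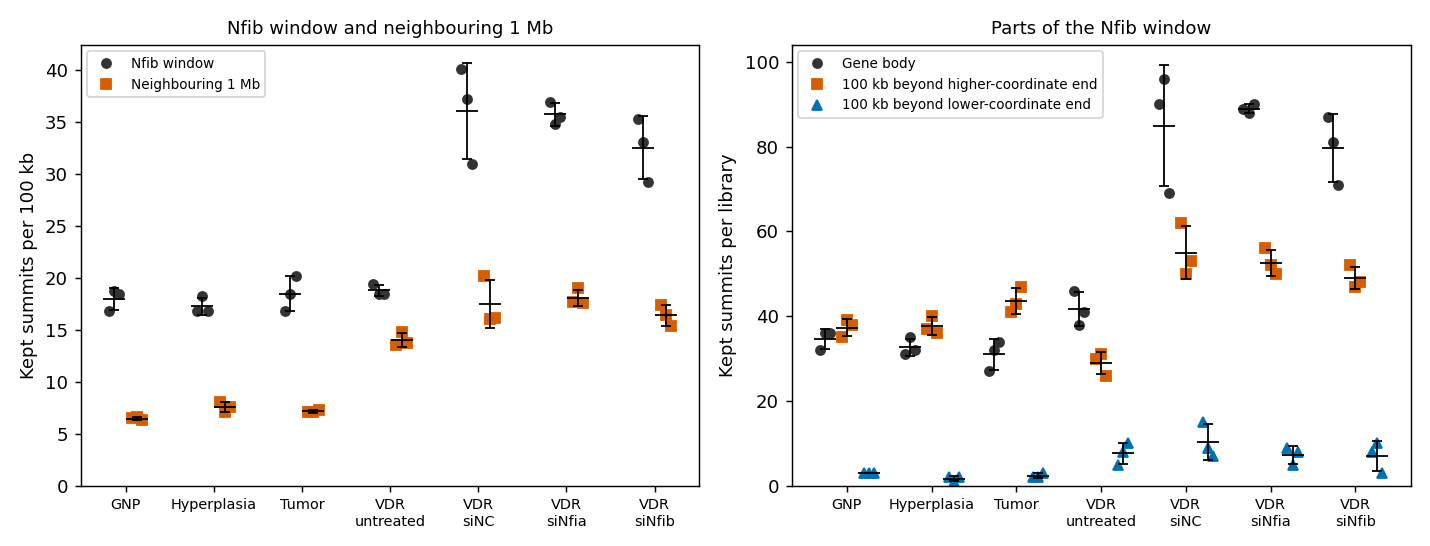
Left, kept summits per 100 kb in each library for the Nfib window (circles) and its neighbouring 1 Mb (squares); right, kept summits per library in the gene body and in the 100 kb beyond each gene end; bars are mean and SD of 3 libraries. The window and its neighbourhood are both higher in siRNA-treated VDR cells, with 29.3 to 40.1 window summits per 100 kb against 16.8 to 20.2 in primary cells.

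Of the 274 sites, 20 were open in all 21 libraries, 10 of them in the gene body and 10 on the higher-coordinate side, and 94 were open in a single library. Sites open in all libraries were 7.3% of the window and 5.43% of all sites, and sites open in 1 library 34.3% and 49.1%. The strongest site by median rank was in the gene body at chr4:82399937-82400436, 106565 bp from the higher-coordinate end, with rank 1 the highest score of a library. It ranked 3364 to 6898 in the 9 primary libraries and 186 to 1478 in untreated VDR. The next were chr4:82589475-82589974 and chr4:82584562-82585061, the latter inside Gm11267, with median ranks of 4806 and 5449. They were followed by chr4:82512951-82513450 in Gm11266, with a median rank of 5860, and by chr4:82506916-82507415.

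The last of these lay 414 bp beyond the higher-coordinate end of Nfib and was the site nearest that end. Its ranks ran from 9248 to 11778 in GNP, 11874 to 19592 in hyperplasia, 9205 to 18000 in tumor and 2013 to 9712 in untreated VDR. In siRNA-treated cells they ran from 8951 to 20490 for siNC, 7910 to 21546 for siNfia and 5099 to 10363 for siNfib. The groups overlapped, and its rank was not called different in any of the 6 comparisons tested. At the lower-coordinate end, the nearest site was chr4:82290191-82290690 and was open in siNC replicate 1 only, at rank 91232.

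**Figure D2:**
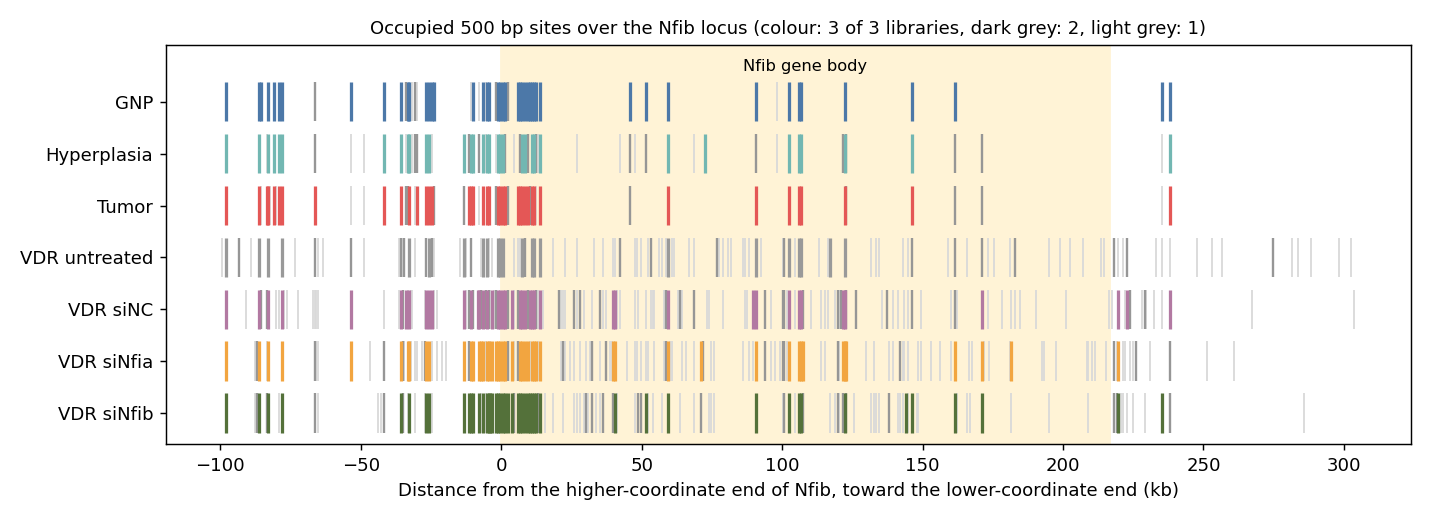
Each mark is a 500 bp site of the Nfib locus open in a group, placed by its distance in kb from the higher-coordinate gene end (negative values lie beyond that end, the shaded part is the gene body). Colour marks sites open in 3 of 3 libraries, dark grey 2 and light grey 1. Sites shared by all 3 libraries crowd around the higher-coordinate end in every group, and the lower side is nearly empty in primary cells.

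Some facts of the libraries bear on every comparison. Deposited lists held 159720 to 279584 summits, read depth is unknown, and the score at rank 100000 ran from 9.26 to 28.9 in primary libraries, 3.76 to 3.97 in untreated VDR and 4.95 to 17.4 with siRNA. Scores were heavily tied: 2048 to 54578 summits of a library shared the score of rank 100000, and ties at that limit were broken in a random order. Over the Nfib window 0 to 50 summits per library were so tied, of which 0 to 39 were kept. Untreated VDR libraries stood apart. Only 12.1% of their sites genome-wide were open in 3 of 3 libraries, against 48.3% to 72.4% in the other groups. In the window these were 23 of 120 sites for untreated VDR, 46 of 57 for GNP and 44 of 158 for siNC.

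Marker genes, counted over their bodies and 2 kb on each side, moved with some groups. Of 10 granule lineage markers, all had kept summits in every group, summing to 139 to 183 per library and to 337 to 413 in untreated VDR. The untreated sum came from Gli2, a Hedgehog pathway factor, at 290 to 360 against 41 to 54 in primary libraries. Without Gli2, left out after its values were seen, the list summed to 94 to 134 in primary libraries, 47 to 66 in untreated VDR and 74 to 99 with siRNA. Pax6, a transcription factor of granule progenitors, held 17 to 30 in primary libraries and 3 to 7 in untreated VDR. Barhl1, Neurod1, Zic1, Gli1 and Mycn were likewise lower in every untreated VDR library than in every primary library. Cntn2 went the other way, at 6 to 10 in primary libraries and 16 to 24 in untreated VDR. Atoh1, at 7 to 11 and 5 to 10, and Zic2 overlapped.

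Endothelial markers, with none of 4 at 0 in any group, summed to 19 to 24 with siNfib, above the 12 to 14 with siNC and 11 to 16 with siNfia. Cdh5 held 12 to 13 with siNfib and 5 to 9 with siNC or siNfia, and Tek 3 to 5 and 0 to 2. Pecam1 and Kdr overlapped between these groups. Endothelial sums were 14 to 24 in untreated VDR and 17 to 20 in GNP. Markers of Purkinje cells and interneurons summed to 6 to 7 in tumor, below the 11 to 14 in GNP and 10 to 15 in hyperplasia, with Pax2 at 0 in tumor. Immune markers summed to 15 to 19 in untreated VDR and to 6 to 13 in the other groups. The microglial gene Cx3cr1 held 1 summit in untreated VDR replicate 2 and 0 in every other library. Astrocyte markers summed to 23 to 40, oligodendrocyte markers to 10 to 25 and fibroblast markers to 20 to 31. Their part in the results was not tested.

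Across the primary stages the number of summits over Nfib did not pass the test. GNP libraries averaged 75 ± 4.36, hyperplasia libraries 72 ± 3.46 and tumor libraries 77 ± 7 (SD, n = 3), and all 3 groups overlapped. In limma's test over 17925 gene windows the log2 change was -0.06 (SE 0.08, adjusted p = 0.7) for hyperplasia against GNP, 0.09 (SE 0.08, adjusted p = 0.539) for tumor against hyperplasia and 0.04 (SE 0.08, adjusted p = 0.801) for tumor against GNP. Of all windows tested, 4.48% were higher and 4.55% lower in the first comparison (9.03% in all), 2.13% and 2.48% in the second (4.61%) and 6% and 7.48% in the third (13.5%). The sign of these small differences changed with the number of summits kept, so no direction is read from them.

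Site by site, 2 sites of the locus were open in 3 of 3 hyperplasia and 0 of 3 GNP libraries, 2.82% of the 71 sites open in either group beside 4.72% of all sites. The opposite pattern held for 4 sites, 5.63% beside 4.41%. Between tumor and hyperplasia there was 1 site in each direction of 73, beside 1.83% and 2.01%. Between tumor and GNP there were 2 sites open only in tumor and 1 only in GNP of 65, beside 4.73% and 4.33%. These shares are near the genome-wide ones. With 3 libraries against 3 an exact two-sided p cannot be below 0.1, so no single site was tested this way.

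The site open only in hyperplasia deepest in the gene was chr4:82433934-82434433, with ranks 44454, 92110 and 62119. It was closed in every library outside hyperplasia, although all 3 tumor libraries had a weaker summit there in their whole lists and no GNP library did. The site chr4:82500602-82501101, 5900 bp inside the gene from its higher-coordinate end, was open in GNP at ranks 82934, 72655 and 65126 and in tumor at 48082, 80392 and 73302. It was closed in hyperplasia, where all 3 whole lists held a weaker summit. The same was true of chr4:82496326-82496825 in GNP libraries, which lay in Nfib and in the overlapping RNA 2310067E19Rik. Beyond the higher-coordinate end, chr4:82519882-82520381 in Gm11266 was open in hyperplasia and not in GNP, at 68548, 86878 and 75867. GNP but not hyperplasia was open at chr4:82530620-82531119 in Gm11266 and at chr4:82592028-82592527, at ranks from 67040 to 93480. Tumor but not GNP was open at chr4:82590018-82590517 and, in Gm11266, at chr4:82517837-82518336, at ranks from 55172 to 80392, and the reverse held for chr4:82454916-82455415 in the gene body, at 66330 to 90057. At each of these 6 sites the other group had a weaker summit in 2 or 3 of its whole lists.

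Rank gave a finer view of the 30 sites of the locus that were open in all 9 primary libraries. Ranks were compared as log2 with limma over 40221 such sites genome-wide, a negative change being a stronger site. In hyperplasia against GNP 3 of the 30 sites were stronger and 1 was weaker, while 8.42% and 10.2% of all sites were so called. In tumor against GNP 3 were stronger and 0 weaker, beside 10.7% and 7.93%, and at an unadjusted p under 0.05 there were 4 and 1. In tumor against hyperplasia 2 were stronger and 0 weaker, beside 8.26% and 5.04%, with 5 and 1 at an unadjusted p under 0.05.

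The largest gain in rank was at chr4:82533199-82533698 in Gm11266, 26697 bp beyond the gene. It ranked 40020, 46608 and 50108 in GNP, 11317, 16539 and 18313 in hyperplasia and 18000, 25087 and 14364 in tumor. GNP overlapped neither later stage. The log2 change of rank was -1.59 (SE 0.291, adjusted p = 0.000937) for hyperplasia and -1.28 (SE 0.291, adjusted p = 0.00512) for tumor, each against GNP, and both calls held whichever library was left out.

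Inside the gene, chr4:82384167-82384666 ranked 40020, 40526 and 38168 in GNP, 17264, 19592 and 13990 in hyperplasia and 22126, 19138 and 22001 in tumor. Both later stages were stronger than every GNP library. The change was -1.24 (SE 0.254, adjusted p = 0.00233) in hyperplasia and -0.91 (SE 0.254, adjusted p = 0.0185) in tumor; the former held in 6 of 6 refits that left out a library. The latter held in 2 of 6 and was lost without any of the GNP libraries or without tumor replicate 2 (adjusted p up to 0.0736). A neighbour in the gene body, chr4:82404193-82404692, ranked 42812, 54288 and 63286 in GNP and 20305, 20086 and 30139 in hyperplasia. It did not overlap between those groups (log2 -1.19, SE 0.294, adjusted p = 0.00826), and tumor lay between at 40660, 28500 and 48348.

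The site that weakened was the only one of the 30 on the lower-coordinate side, at chr4:82268358-82268857, 21566 bp beyond that gene end. Its ranks were 21206, 11155 and 11164 in GNP and 53158, 45686 and 37790 in hyperplasia, with no overlap (log2 1.71, SE 0.294, adjusted p = 0.000575). In tumor it ranked 23524, 22912 and 22001, all stronger than every hyperplasia library (log2 -0.98, SE 0.294, adjusted p = 0.0362). The call between hyperplasia and GNP held in 6 of 6 refits without a library, and that between tumor and hyperplasia only in the refit without hyperplasia replicate 3 (adjusted p up to 0.102 in the others).

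Of the other called sites, chr4:82492685-82493184 was stronger in tumor than in hyperplasia (log2 -0.89, adjusted p = 0.0442) and chr4:82494773-82495272 stronger in tumor than in GNP (log2 -0.89, adjusted p = 0.0376). Both lie 11729 to 13817 bp inside the gene, where Nfib and 2310067E19Rik overlap. The first call held only without hyperplasia replicate 3 (adjusted p up to 0.16 in the others), and the second was lost without any 1 of the 6 libraries (up to 0.137).

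**Figure D3:**
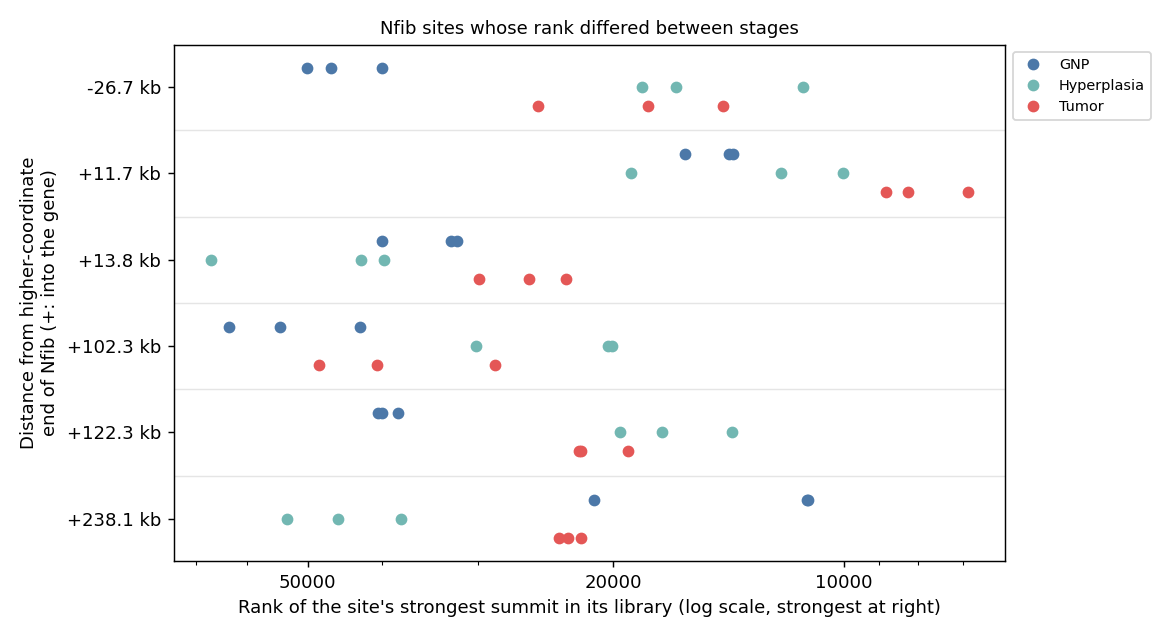
Rank of the strongest summit in each GNP, hyperplasia and tumor library (log scale, strongest at the right) for the 6 sites of the Nfib locus whose rank was called different between stages, labelled by distance from the higher-coordinate gene end. At -26.7 and +122.3 kb all GNP points lie left of all hyperplasia and tumor points; at +238.1 kb hyperplasia lies left of GNP and tumor.

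Knockdown libraries were compared with siNC to ask whether the Nfib locus itself differed when Nfia or Nfib was targeted. The number of summits did not pass the test. Means were 150 ± 19.4 with siNC, 149 ± 4.58 with siNfia and 136 ± 12.7 with siNfib (SD, n = 3). In limma's test over 17436 gene windows the log2 change was -0.14 (SE 0.09, adjusted p = 0.451) for siNfib against siNC and -0.14 (SE 0.09, adjusted p = 0.41) for siNfib against siNfia. For siNfia against siNC it was -0.005 (SE 0.09, adjusted p = 0.997). Of all windows tested, 1.12% were higher and 1.45% lower in the first comparison (2.58% in all), 2.99% and 1.89% in the second (4.88%) and 0.109% and 0.166% in the third (0.275%). In whole lists the siNfib libraries held 541, 467 and 712 summits here and the siNfia libraries 373, 290 and 417, without overlap (log2 0.66, adjusted p = 0.0441), in a setting where 4225 of 18412 windows were higher with siNfib.

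Few sites opened or closed with an siRNA. With siNfib against siNC 1 site was open only with siNfib and 4 only with siNC, of 196 sites of the locus (0.51% and 2.04%), beside 3.34% and 2.18% of all sites. With siNfia against siNC there was 1 gained and 3 lost of 216 (0.463% and 1.39%), beside 0.971% and 0.852%. With siNfib against siNfia there were 3 and 1 of 193 (1.55% and 0.518%), beside 3.55% and 2.44%. Of the sites open in siNC only, chr4:82514871-82515370 and chr4:82540414-82540913, both in Gm11266, were closed with siNfia and with siNfib alike. The first ranked 64326, 45860 and 93786 with siNC, and the 3 siNfib lists but no siNfia list held a weaker summit there. Both comparisons share the siNC libraries.

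The remaining losses with siNfib were chr4:82416714-82417213 in the gene body, with siNC ranks of 55772, 63344 and 63936, and chr4:82560130-82560629 beyond the higher-coordinate end, with 43152, 42567 and 60832. The latter was also open in 3 of 3 siNfia libraries, at 54690, 89901 and 75328. The site open with siNfib and closed with siNC and siNfia was chr4:82362242-82362741 in the gene body, at ranks 86843, 60596 and 97963. Against siNfia, siNfib libraries were also open at chr4:82360190-82360689 in the gene body, at 76572, 72366 and 80338, and at chr4:82271347-82271846 on the lower-coordinate side. With siNfia against siNC the gain was chr4:82435454-82435953 in the gene body, at 59924, 78131 and 93932, and the third loss chr4:82283577-82284076 on the lower-coordinate side. Except at chr4:82360190-82360689 and for siNfia at chr4:82514871-82515370 and chr4:82540414-82540913, each of these sites had a weaker summit in 2 or 3 whole lists of the group in which it was closed.

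Ranks were compared next at the sites that stayed open. Of 34 sites of the locus open in all 9 siRNA libraries, 2 were stronger and 2 weaker with siNfib than with siNC, where 3.19% and 4.85% of 33001 sites genome-wide were so called by limma. Against siNfia 2 were stronger and 5 weaker with siNfib, beside 4.25% and 5.38%. With siNfia against siNC 0 were stronger and 2 weaker, beside 1.14% and 1.08%, and 5 and 3 passed an unadjusted p under 0.05.

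The strongest site of the gene body, chr4:82399937-82400436, ranked 1550, 596 and 1128 with siNC and 375, 882 and 949 with siNfia. With siNfib it ranked 4037, 4479 and 2680, weaker than each of the other 6 siRNA libraries. Its rank number was 3.6-fold higher than with siNC (log2 1.85, SE 0.458, adjusted p = 0.0117) and 5.36-fold higher than with siNfia (log2 2.42, SE 0.458, adjusted p = 0.000999). The call against siNfia held in 6 of 6 refits without a library. That against siNC held in 3 of 6 and was lost without siNC replicate 2, siNfib replicate 1 or siNfib replicate 2 (adjusted p up to 0.0788). As a description, the siNfib ranks overlapped those of the primary libraries, 3364 to 6898.

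A larger change in rank stood at chr4:82532332-82532831 in Gm11266, 25830 bp beyond the gene. It ranked 3122, 1308 and 6413 with siNC and 34488, 22968 and 11664 with siNfib, without overlap. The rank number was 7.07-fold higher with siNfib (log2 2.82, SE 0.621, adjusted p = 0.00453), and the call held in 6 of 6 refits without a library. With siNfia it ranked 1978, 9798 and 13658, between the others and overlapping both. It lies beside the site of largest gain in hyperplasia, chr4:82533199-82533698, which was not called in any siRNA comparison.

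Going the other way, chr4:82335448-82335947 in the gene body ranked 30723, 63344 and 67264 with siNC, 33392, 31534 and 19677 with siNfia and 9644, 14592 and 21188 with siNfib. All siNfib libraries were stronger than all siNC libraries (log2 -1.82, SE 0.438, adjusted p = 0.00935). The call held in 5 of 6 refits without a library and was lost without siNfib replicate 1 (adjusted p = 0.0803). At the far higher-coordinate edge of the locus, chr4:82604437-82604936 ranked 38375, 42567 and 70812 with siNC, 54690, 45446 and 58122 with siNfia and 13931, 26174 and 12344 with siNfib. It was stronger with siNfib than with siNC (log2 -1.56, SE 0.418, adjusted p = 0.0195) and than with siNfia (log2 -1.67, SE 0.418, adjusted p = 0.011), holding in 3 of 6 and 4 of 6 refits. Both calls were lost without siNfib replicate 1 or 3, with adjusted p up to 0.13, and the first also without siNC replicate 3.

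Further sites differed between siNfib and siNfia. In the gene body chr4:82404193-82404692 ranked 61189, 27356 and 33492 with siNfib against 4910, 7352 and 14972 with siNfia (log2 2.23, SE 0.476, adjusted p = 0.00306), a call that held in 6 of 6 refits. Its neighbour chr4:82415839-82416338 ranked 11566, 17221 and 15469 against 2222, 5188 and 3816 (log2 2.04, adjusted p = 0.00976). Near the higher-coordinate end chr4:82505260-82505759 ranked 43124, 64194 and 45567 against 16390, 15301 and 9208 (log2 1.92, adjusted p = 0.00794). None of these 3 sites overlapped between the groups, and all were weaker with siNfib. The second call was lost without siNfia replicate 1 or siNfib replicate 2 (adjusted p up to 0.0586) and the third without siNfib replicate 2 (adjusted p = 0.0552). With the strongest site, 3 gene-body sites weaker with siNfib than with siNfia lay between 90663 and 106565 bp from that end, each open in 20 or 21 libraries. The other called sites, chr4:82584562-82585061 (stronger) and chr4:82589475-82589974 (weaker), held in 1 of 6 refits (that without siNfia replicate 1) and 2 of 6 (those without siNfia replicate 2 or siNfib replicate 2).

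The 2 sites weaker with siNfia than with siNC were chr4:82492685-82493184 in the gene body, which ranked 65912, 61569 and 75328 against 27674, 19092 and 23763, and chr4:82539273-82539772 in Gm11266, which ranked 36113, 69037 and 65953 against 20490, 19092 and 17554. Neither overlapped between the groups. Log2 changes were 1.54 (SE 0.388, adjusted p = 0.0375) and 1.53 (SE 0.395, adjusted p = 0.0418), and each call held in 1 of 6 refits, the first without siNC replicate 1 and the second without siNfia replicate 1 (adjusted p up to 0.104 and 0.124 in the others). Score at rank 100000 was 8.25 to 17.4 in siNfib lists, 5.03 to 7.23 in siNfia lists and 4.95 to 9.61 in siNC lists, and the part of this difference in the ranks was not tested.

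**Figure D4:**
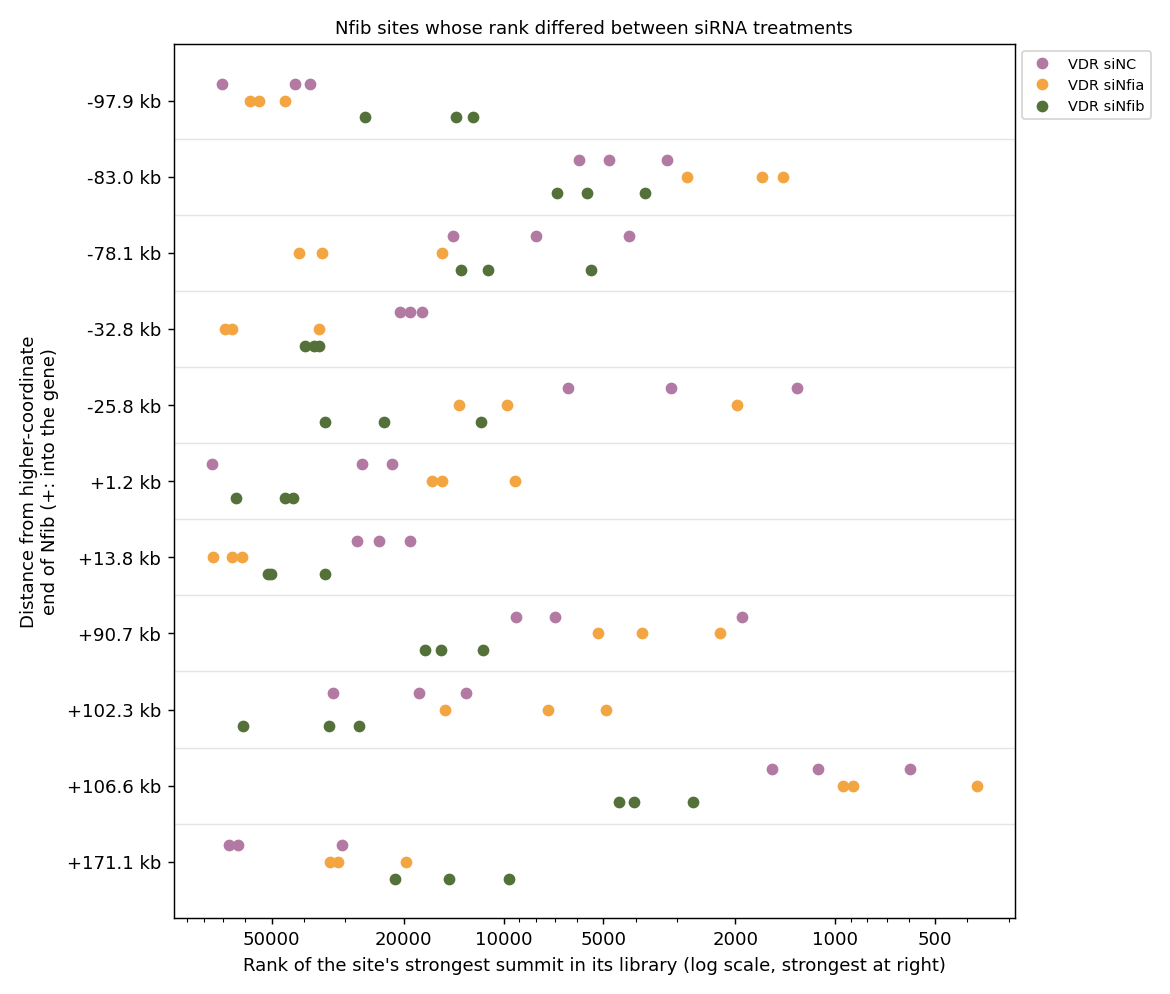
Rank of the strongest summit in each siNC, siNfia and siNfib library (log scale, strongest at the right) for the 11 sites of the Nfib locus whose rank was called different between siRNA treatments, labelled by distance from the higher-coordinate gene end. At +106.6 and -25.8 kb the siNfib points lie left of all siNC points; at +171.1 and -97.9 kb they lie right of them.

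Against tumor, VDR cells were compared untreated and with siNC. The log2 change in window summits was 0.95 for siNC against tumor (SE 0.107, limma adjusted p = 4.08e-06), and 20.3% of 17617 gene windows were higher. The call held whichever library was left out, with log2 changes of 0.87 to 1.06. For untreated VDR against tumor it was 0.03 (SE 0.107, adjusted p = 0.829), while 23.2% of windows were higher and 38.1% lower. Counted as open sites in place of summits, it was 0.27 (SE 0.137, limma adjusted p = 0.108). The untreated value for summits joined parts that went opposite ways. The gene body held 46, 38 and 41 summits in untreated VDR and 27, 32 and 34 in tumor (log2 0.42, SE 0.144, adjusted p = 0.0307, beside 19.6% of gene bodies higher). The higher-coordinate side held 30, 31 and 26 against 41, 43 and 47 (log2 -0.58, SE 0.114, adjusted p = 0.000674, beside 24.9% lower). The lower-coordinate side held 5, 8 and 10 against 2, 2 and 3 (log2 1.35, SE 0.289, adjusted p = 0.000973, beside 24% higher). None of the 3 parts overlapped between the groups.

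With siNC the gene body held 90, 96 and 69 summits (log2 1.42, SE 0.144, adjusted p = 9.1e-05, beside 12.8% of gene bodies higher). The higher-coordinate side held 62, 50 and 53 (log2 0.32, SE 0.114, adjusted p = 0.0457, beside 17.8% higher). The lower-coordinate side held 15, 9 and 7 (log2 1.72, SE 0.289, adjusted p = 0.000248, beside 19% higher). All siNC libraries were above all tumor libraries on the 3 measures. Most of the additional summits were of low rank: siRNA libraries had 45 to 62 window summits in the first 50000 and 66 to 107 in the next 50000, and primary libraries 34 to 45 and 32 to 45. In whole lists the window held 137 to 224 summits in tumor, 114 to 143 in untreated VDR and 359 to 498 with siNC.

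The neighbourhood of Nfib moved with it. The neighbouring 1 Mb held 71 to 73 kept summits in tumor libraries, 136 to 148 in untreated VDR and 161 to 202 with siNC. Relative to that 1 Mb the siNC window was no longer called (log2 -0.32, SE 0.145, adjusted p = 0.149), and the untreated VDR window was lower than in tumor (log2 -0.93, SE 0.145, adjusted p = 0.00261, beside 10.1% of windows lower). Relative to 2 Mb the siNC window was itself lower (log2 -0.64, adjusted p = 0.0113). The surroundings of the gene were thus higher with siNC as well. In bulk cells, more cells with an open site and more signal per cell cannot be told apart.

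In bins of 5 Mb along chromosome 4, the bin with Nfib held 2.52 times as many kept summits with siNC as in tumor, the highest of 30 bins. With siNfia it was also the highest, at 2.67, with siNfib the next to highest at 2.08, and in untreated VDR 2.28. The bin at 5 Mb was at 2.04 with siNC and those at -40 and -35 Mb were at 2.21 and 2.01, whereas the bins at -45 and 10 Mb were at 0.414 and 0.791. With siNC 8 of the 30 bins reached 1.5, all of them between -40 and 5 Mb, and the median bin was at 0.855. Hyperplasia in the Nfib bin was at 0.992 of tumor. The Nfib bin and the bin at 5 Mb were above tumor in every VDR group. The raised stretch was not even: the bin at -5 Mb was at 1.18 with siNC and 0.652 in untreated VDR. In untreated VDR the bins at -30, -15 and -10 Mb were at 1.11, 1.14 and 1.27. Copy number, which peak lists do not measure, and its part in the VDR counts were not tested.

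**Figure D5:**
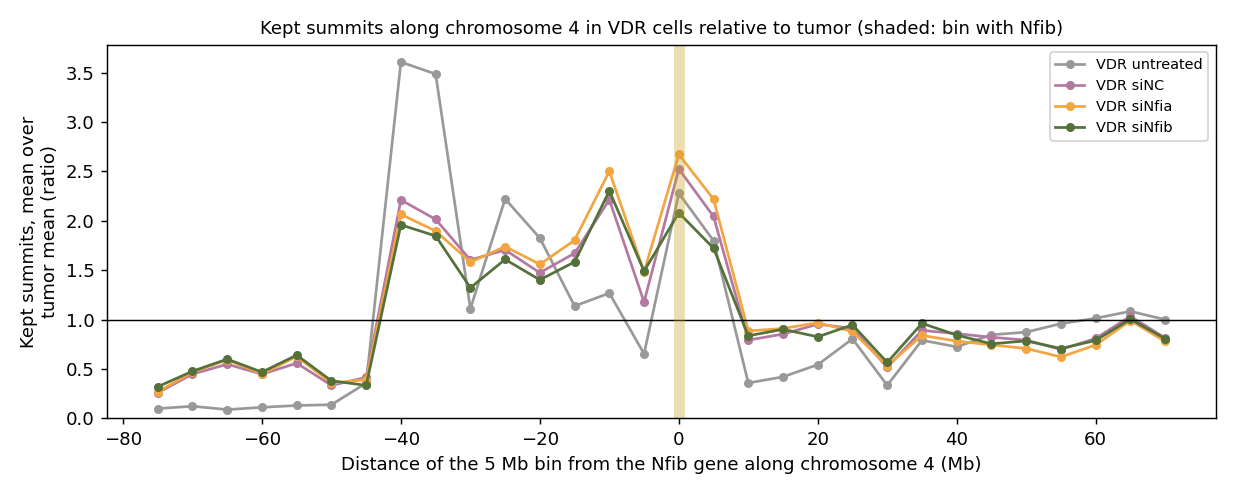
Mean kept summits in 5 Mb bins along chromosome 4 for each VDR group, divided by the tumor mean, against distance from Nfib in Mb; the line at 1 marks equality and the shaded bin holds Nfib. Ratios rise sharply at -40 Mb and drop below 1 at 10 Mb in all VDR groups, and the Nfib bin is at 2.08 to 2.67. In untreated VDR the bin at -5 Mb is also below 1, at 0.652.

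At single sites, siNC against tumor gave 9 sites open only with siNC and 2 only in tumor, of 164 in the locus (5.49% and 1.22%), beside 4.44% and 10.3% of all sites. Among the gains, chr4:82384922-82385421 in the gene body ranked 55772, 49541 and 67264 with siNC, and chr4:82514871-82515370, closed with siNfia and siNfib, was another. In the neighbouring 1 Mb 23 of 185 sites (12.4%) were open only with siNC. Untreated VDR against tumor gave 1 and 9 of 141 (0.709% and 6.38%), beside 0.997% and 8.41%. The gain was chr4:82389473-82389972 in the gene body, and the loss of best rank chr4:82505260-82505759, 1242 bp inside the gene, which ranked 21446, 45904 and 61214 in tumor and had no summit at any score in untreated VDR. Closed in both VDR groups was chr4:82587431-82587930 in Gm11267. It was open in 9 of 9 primary libraries, at ranks 77522, 46608 and 42538 in GNP, 46418, 38152 and 66264 in hyperplasia and 71320, 78090 and 56390 in tumor, and in 0 of 12 VDR libraries. Untreated and siNC lists held no summit there at any score, while 2 siNfia and 3 siNfib lists held a weaker one. It was the only such site of the locus (0.365%), beside 1.34% of all sites and 0.257% of those in the neighbouring 1 Mb. Tumor but neither VDR group was also open at chr4:82536541-82537040 in Gm11266, at 80184, 99146 and 90062.

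In the other direction 4 sites were open in all 9 siRNA-treated libraries and in no primary library, 1.46% of the locus beside 0.484% of all sites and 2.06% of those in the neighbouring 1 Mb. They were chr4:82502636-82503135 and chr4:82466045-82466544 in the gene body, chr4:82509671-82510170 in Gm11266 and chr4:82286820-82287319 below the lower-coordinate end. The first was also closed in all 3 untreated VDR libraries, with siRNA ranks of 41444 to 78131. In all, 168 of the 274 sites (61.3%) were open in a siRNA-treated library and in no primary library, beside 18.1% of all sites and 47.8% of those in the neighbouring 1 Mb. Their median rank was 80778, and 96 of them had a weaker summit in a whole primary list. Sites open in all 21 libraries had similar median ranks in siRNA-treated and primary cells, 16914.5 and 16991.

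A gene-body site that was open in 20 libraries had a wide range of ranks. At chr4:82415839-82416338 ranks were 34532, 26589 and 24704 in GNP and 71320, 72002 and 90062 in tumor, and 1 hyperplasia library was closed. Untreated VDR ranked 1814, 3348 and 16024 and siNC 7000, 1915 and 9200. All VDR libraries were thus stronger than all primary libraries, as a description of ranks that were not tested between tumor and VDR. Of the 20 sites open in all libraries, 1 had the same order (5% beside 5.12% of all such sites). It was chr4:82384167-82384666, at 3260 to 11158 in VDR and 13990 to 40526 in primary libraries. The opposite order held at 1 site, chr4:82539273-82539772 (beside 4.87%).

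The other NFI genes, measured the same way over their bodies and 100 kb on each side, were not called in any stage or siRNA comparison. Nfia, also on chromosome 4 and like Nfib a regulator of granule neuron and glial genes, held 92.3 ± 9.29 window summits in tumor, 33.3 ± 7.37 in untreated VDR and 73 ± 5.57 with siNC (SD, n = 3). It was lower in untreated VDR (log2 -1.46, SE 0.138, limma adjusted p = 1.08e-07), beside 38.1% of all windows lower. It did not pass with siNC (log2 -0.33, adjusted p = 0.0731). Nfix rose from 101 ± 6.08 in tumor to 137 ± 4.58 in untreated VDR (log2 0.44, adjusted p = 0.000449) and 125 ± 1.73 with siNC (log2 0.31, adjusted p = 0.0124). Of all windows, 23.2% and 20.3% were higher in these comparisons. Nfic, at 67.7 ± 4.93 in tumor, passed in neither. These differences from tumor shared the tumor libraries, and the neighbourhoods of these 3 genes were not examined.

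Around the locus, the protein-coding neighbours were few. Zdhhc21, a palmitoyltransferase gene, held 4 to 6 kept summits over its body in tumor libraries, 8 to 11 in untreated VDR and 12 to 20 with siNC. Frem1, an extracellular matrix gene, held 13 to 14, 23 to 35 and 20 to 33. Cer1, which encodes a secreted inhibitor of BMP and Nodal signals, held 2 to 3, 0 to 2 and 1 to 4. Values for Zdhhc21 and Frem1 were higher in every VDR library of these groups than in every tumor library, and those of Cer1 overlapped. Within Nfib, 2310067E19Rik held 7 to 12 in tumor and 22 to 28 with siNC, reads of overlapping genes being inseparable here.

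Among 7798 gene windows with a mean of at least 20 summits and more than 2 Mb away, those whose log2 counts followed Nfib most closely over the 21 libraries were Inip (Pearson r 0.97), Zfp13 (0.96), E130308A19Rik (0.96), Zscan10 (0.95) and Nalcn (0.95). Libraries of a group share their treatment and read depth is unknown, so these coefficients are descriptive and no p is given. Inip and E130308A19Rik lie on chromosome 4, as Nfib does. Zfp13 and Zscan10 lie on chromosome 17 and Nalcn on 14. Whether windows on the same chromosome share summits was not examined. Inip, for example, held 20.3, 20.3 and 20 window summits on average in GNP, hyperplasia and tumor, 22.7 in untreated VDR and 41 with siNC. It was picked for following Nfib over these same libraries, so a similar step between untreated and siRNA-treated VDR cells follows from the choice.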

How the data were processed

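The authors deposited 1 list of summits for every library, with a score that its values mark as a −log10 p-value or q-value from peak calling; which of them is not stated. Bowtie2, Picard and MACS2 with mm10 are named in the submitters' processing notes; versions, parameters and read shifting are not given in the sources used here. Scores depend on the depth of their library, which is unknown, so they served only to rank summits within a list. From each list the 100000 highest summits of the 19 autosomes and both sex chromosomes were retained, ties at that limit being broken in a seeded random order, and tied summits shared their mean rank. Kept summits were merged by rank into sites of 500 bp. No kept summit had the same position and score in any 2 libraries.

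Summits per protein-coding gene window were analysed as log2(count + 1) with limma 3.58.1 in R 4.3.3, with trended empirical Bayes variance, windows of mean 3 or more, and Benjamini-Hochberg adjustment at 0.05 over all windows; fold changes of low counts are understated. Fits held 9 libraries each: primary, siRNA, and tumor with untreated VDR and siNC. Log2 ranks of sites open in all 9 libraries were fitted with limma's empirical Bayes without a trend. Their p-values were adjusted in the same way over all such sites. Both fits were tested on simulated data. RefSeq gave genes, without strand for Nfib, and promoters. Sites named were those that differed 3 of 3 against 0 of 3, at most 5 each way, the called ranks, the 5 best median ranks and those nearest each gene end; the sites open in all siRNA and no primary libraries and the group order at 1 gene-body site were picked after their values were seen. The members and lists were chosen with earlier results of these data known. Alternatives changed the summits kept, window, baseline, site width, pseudocount, filter, libraries fitted, replicate block and handling of ties.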

Additional observations from a re-analysis of the deposited data

How the results depend on the processing

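The higher count over Nfib with siNC than in tumor was called under 17 of 19 alternatives and reversed with a local baseline, at -0.32 relative to the neighbouring 1 Mb (not called) and -0.64 relative to 2 Mb (called lower). Log2 changes in the other 7 comparisons of window summits reversed or crossed the threshold as follows; the cause was not tested. With 50000 summits kept, tumor against GNP was -0.15, siNfia against siNC 0.054 and untreated VDR against tumor 0.30. With 150000 kept, hyperplasia against GNP was 0.085, tumor against hyperplasia -0.056, siNfib against siNC 0.12, siNfib against siNfia 0.18 and untreated VDR against tumor -0.10. With whole lists these 5 were 0.13, -0.21, 0.38, 0.66 and -0.46, and tumor against GNP was -0.085. Untreated VDR against tumor was thus called higher with 50000 kept (limma adjusted p = 0.0457) and lower in whole lists (limma adjusted p = 0.00803). With the gene body alone, tumor against hyperplasia was -0.078, tumor against GNP -0.16, siNfia against siNC 0.079 and untreated VDR against tumor 0.42. On 50 kb flanks siNfia against siNC was 0.023. Counting sites, tumor against GNP was -0.0042 and siNfia against siNC 0.0056. Relative to 1 Mb, tumor against GNP was -0.11, siNfib against siNfia 0.0043 and untreated VDR against tumor -0.93; relative to 2 Mb these were -0.11, 0.25 and -1.33, with siNfib against siNC 0.10.

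Alternatives chosen after seeing the data gave these reversals or new calls. With ties left out siNfia against siNC was 0.13 and untreated VDR against tumor -0.059. With ties kept hyperplasia against GNP was 0.025, tumor against hyperplasia -0.0035, siNfia against siNC 0.046 and untreated VDR against tumor 0.36. Only the last of these was called (limma adjusted p = 0.0159). Relative to the rest of chromosome 4 siNfia against siNC was 0.021 and untreated VDR against tumor -0.18. On the higher-coordinate side alone hyperplasia against GNP was 0.013 and untreated VDR against tumor -0.58, and on the lower side the latter was 1.35; in the primary fit the lower side fell under the filter and gave no value. Leaving out each library in turn, log2 changes ranged from -0.029 to 0.10 for tumor against GNP, -0.11 to 0.074 for siNfia against siNC and -0.038 to 0.092 for untreated VDR against tumor.

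Sites open in 3 of 3 against 0 of 3 numbered 6, 2, 3, 4, 5, 4, 10 and 11 in hyperplasia against GNP, tumor against hyperplasia, tumor against GNP, siNfia against siNC, siNfib against siNC, siNfib against siNfia, untreated VDR against tumor and siNC against tumor. With 50000 kept they were 3, 0 in the second, 1 in each siRNA comparison, 1 and 6, and with 150000 kept 1 in the second, 10 and 9 for siNfia and siNfib against siNC, 16 and 28. At 250 bp tumor against GNP gave 7, untreated VDR 18 and siNC 17; at 1000 bp hyperplasia against GNP gave 3 and tumor against GNP 0. With ties kept tumor against hyperplasia gave 1. Without each library in turn the counts ranged 2 to 4 for tumor against hyperplasia, 3 to 6 for tumor against GNP, 4 to 9 and 5 to 13 for siNfia and siNfib against siNC, 4 to 8 for siNfib against siNfia and 11 to 21 for siNC against tumor, siNfib against siNC and siNC against tumor being highest without siNC replicate 3. Called ranks ranged 0 to 2 for tumor against hyperplasia, 1 to 2 for tumor against GNP, 0 to 2 and 1 to 4 for siNfia and siNfib against siNC, the lowest without siNfib replicate 1, and 4 to 7 for siNfib against siNfia.

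Deviations of same-numbered libraries from their group means had correlations of -0.088 to 0.112 over the 3 fits. Differently numbered libraries were not compared, so these values cannot decide whether the numbers pair the libraries. With the replicate block every window comparison kept its call (siNC against tumor 0.95), and called ranks numbered 5, 2, 3, 2, 4 and 6. Read depth, the unstated peak threshold and kept summits that lie in no site limit what a closed site means.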
